A study of Mus musculus with 3 samples.

Results

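The genes described here are Vldlr, the very low density lipoprotein receptor gene, and 4 relatives in the LDL receptor family, Lrp1, Lrp5, Lrp6 and Lrp8. They are 5 of the 21883 protein-coding genes in the mouse RefSeq table used here. Their peaks were taken from ATF4 and CEBPG chromatin immunoprecipitation sequencing (ChIP-seq) lists, as those overlapping a gene's span or the 50 kb on either side. The family windows held 4 of the 2642 ATF4 peaks and 19 of the 25419 CEBPG peaks. The genes were chosen by the presence, number and scores of these same peaks, with Vldlr singled out for its own, so counts and scores are a description and carry no test.

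The cells were wild-type C57BL/6 mouse embryonic fibroblasts, primary cells taken from embryos at E13.5. All of them were plated for 24 hours and were then switched to medium lacking amino acids (AAD, amino acid deprivation) for 3 hours before fixation. Chromatin was precipitated with an ATF4 antibody, with a CEBPG antiserum or with a GFP antibody, giving 3 libraries, 1 per antibody. The GFP library was not analysed here. No library from cells in complete medium was analysed here, so the peaks show where each factor lay under deprivation and not what deprivation changed. Without replicates no value below has an error between cultures. The lists hold no read counts, and library depth is therefore unknown. They hold no expression levels either, so the fibroblast label was not checked against marker genes.

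Receptors of the LDL receptor family are single-pass membrane proteins with ligand-binding repeats outside the cell and short cytoplasmic tails that recruit adaptors. VLDLR takes up triglyceride-rich lipoproteins carrying apolipoprotein E, and together with LRP8 (also called ApoER2) it receives the secreted protein reelin in the developing brain. LRP1 is a large endocytic receptor with many ligands, while LRP5 and LRP6 act as Wnt co-receptors alongside Frizzled proteins. ATF4 and CEBPG are basic leucine zipper (bZIP) proteins that can pair with each other and bind composite elements made of a C/EBP part and an ATF part. In mouse liver, Vldlr is known as a gene induced by endoplasmic reticulum stress through the PERK and ATF4 branch.

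The RefSeq promoter table lists 2 start sites for Vldlr, 536 bp apart on the forward strand of chromosome 19, at 27216484 and 27217020. The windows around them, from 250 bases before to 50 bases after each start, are shown because the stronger ATF4 peak of Vldlr lies at these starts. Capitals mark matches to the bZIP motifs searched. In the window of the first start, chr19:27216234-27216533 (GRCm38.p6, the build mm10, forward strand), they mark a degenerate C/EBP match on the reverse strand. In the window of the second start, chr19:27216770-27217069 on the same strand, they mark a C/EBP-ATF composite match, also on the reverse strand.
Vldlr start 1: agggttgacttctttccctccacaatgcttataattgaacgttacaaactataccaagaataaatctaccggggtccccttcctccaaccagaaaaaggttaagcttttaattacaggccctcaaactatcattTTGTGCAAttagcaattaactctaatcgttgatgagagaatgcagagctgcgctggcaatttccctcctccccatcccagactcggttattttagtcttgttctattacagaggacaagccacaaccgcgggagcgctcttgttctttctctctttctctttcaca
Vldlr start 2: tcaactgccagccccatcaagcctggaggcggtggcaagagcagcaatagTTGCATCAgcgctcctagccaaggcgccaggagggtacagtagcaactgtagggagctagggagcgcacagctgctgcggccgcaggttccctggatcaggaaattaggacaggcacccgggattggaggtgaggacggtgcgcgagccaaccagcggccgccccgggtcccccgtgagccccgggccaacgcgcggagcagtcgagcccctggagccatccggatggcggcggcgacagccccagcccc

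Vldlr carried 2 sites, each with an ATF4 peak lying wholly inside a CEBPG peak, and no other peak of either list fell in its window. The score attached to each peak is the authors' own, starts at about 40 in both lists, and can be compared only within a list. At the start of the gene the ATF4 peak covered chr19:27216580-27216954 with a score of 275.2, rank 20 of 2642. The CEBPG peak there covered chr19:27216366-27217159 with a score of 2042.82, rank 105 of 25419. Beyond the other end of the gene, the ATF4 peak covered chr19:27260677-27260870 with a score of 72.89, rank 230. The CEBPG peak at that downstream site covered chr19:27260472-27261085 with a score of 3133.62, rank 4. The order of the sites was therefore opposite in the 2 lists. ATF4 scored highest at the start, and CEBPG scored highest downstream.

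The ATF4 peak at the start lay between the start sites and touched neither. It began 96 bp after the first start and ended 66 bp before the second, with its centre 253 bp before the second. The CEBPG peak was broader and spanned both starts, from 118 bp before the first to 139 bp after the second. The composite match sat at chr19:27216820-27216827, its first base 200 bp before the second start. It was inside both peaks, with its centre 56.5 bp from the ATF4 centre and 61 bp from the CEBPG centre. The degenerate C/EBP match, at chr19:27216368-27216375, was inside the edge of the CEBPG peak, 391 bp from its centre, and outside the ATF4 peak.

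**Figure D1:**
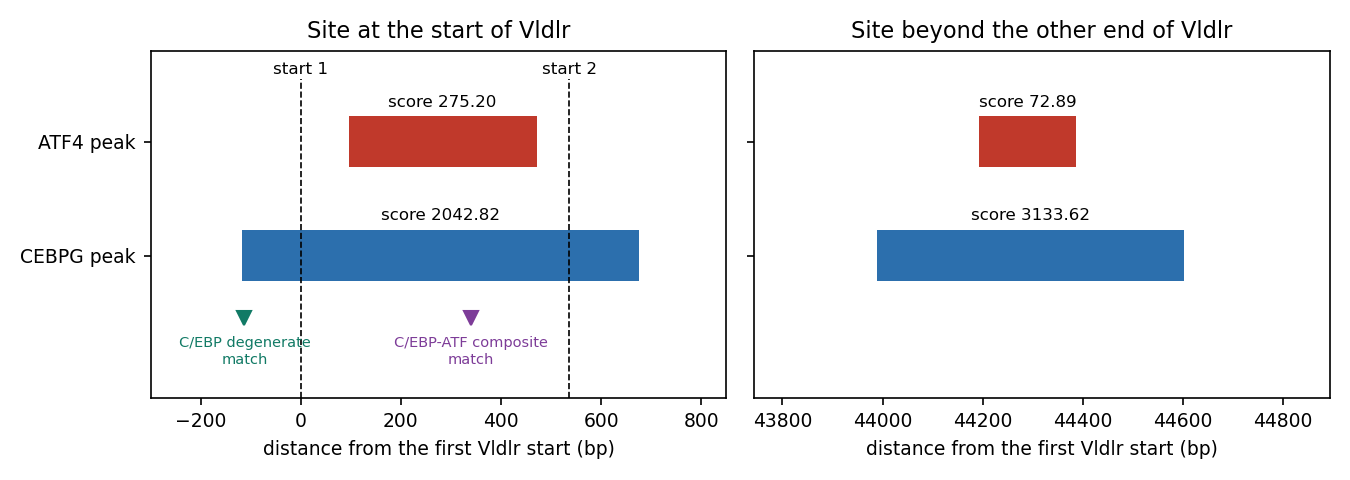
Extent of the ATF4 (red) and CEBPG (blue) peaks at the site at the start of Vldlr (left) and at the site beyond its other end (right), against distance in bp from the first start site, with scores above the bars. Dashed lines are the start sites and triangles are motif matches; the right-hand site was not searched for motifs. In each panel the ATF4 peak lies inside the CEBPG peak.

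The downstream site lay 6.2 kb from the Vldlr span by its CEBPG peak. The next nearest protein-coding gene, Kcnv2, which encodes a modifier subunit of voltage-gated potassium channels, was 61.0 kb away. The centres of the Vldlr sites were 44.0 kb apart, with the gene between them. In the RefSeq table a lncRNA gene of unassigned role, Gm35438, spans from 27101671 to 27316698 and covers both sites, so each also lies inside an annotated non-coding gene. That table gives no strand for Gm35438. No sequence of the downstream site was used here.

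The nearest further ATF4 peaks were 769.1 kb below the gene (score 50.16, nearest to Smarca2) and 2653.3 kb above it (49.18). The nearest further CEBPG peaks were weak and unpaired. They lay 53.0 kb below the gene (score 44.69), just outside the 50 kb limit, and 114.3 kb above it (55.64, nearest to Pum3). Gaps of this order were also seen elsewhere. The nearest ATF4 peaks outside the Lrp8 window were 1656.0 kb below and 503.3 kb above that gene, and the nearest CEBPG peaks outside it were 437.7 kb below and 84.7 kb above. The 2 CEBPG peaks inside the limit scored 2042.82 and 3133.62, where the median of the whole CEBPG list was 47.24.

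Centres of the ATF4 and CEBPG peaks nearly coincided at each site, 4.5 bp apart at the start and 5 bp apart downstream. Over all 404 overlapping pairs the median distance was 44 bp, and 25 pairs were within 5 bp. The ATF4 peak at the start was wider than 93.3% of its list, and the CEBPG peaks were wider than 99.7% (start) and 98.7% (downstream). The downstream ATF4 peak was less unusual, wider than 68.4% of its list. ATF4 widths were 375 bp at the start and 194 bp downstream, where the ATF4 median was 164 bp. CEBPG widths were 794 bp and 614 bp, where the CEBPG median was 131 bp. The whole lists are mostly low-scoring, with median scores of 47.24 for CEBPG and 45.88 for ATF4. Neither widths nor centre distances were compared with peaks of similar score. Whether they are unusual for such scores is therefore not known. The CEBPG peak was 2.12 times as wide as the ATF4 peak at the start and 3.16 times downstream, against a median of 2.01 over all pairs. For this reason neither site counted as shared where each peak had to cover at least 50% of the other, although each ATF4 peak was fully inside its partner. That arrangement was common, at 333 of the 404 pairs (82.4%).

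Among ATF4 peaks that overlapped a CEBPG peak, the site at the start ranked 15 of 400 by ATF4 score, and the downstream site ranked 170. Among CEBPG peaks that overlapped an ATF4 peak, the same sites ranked 92 and 4 of 401. The ATF4 score downstream was low among pairs with so high a CEBPG score. Of the 44 shared ATF4 peaks whose CEBPG partner scored 3000 or more, 3 had a lower ATF4 score than 72.89 and 40 had a higher one. Their ATF4 scores ran from 41.61 to 841.75 with a median of 168.82. In the CEBPG list 38 peaks are tied at 3100 and 4 lie above it, up to 3205.83. The downstream Vldlr peak is the lowest of those 4, so its rank of 4 places it just above the tied peaks. Why 38 peaks share exactly 3100 is not stated, and that value may be a limit of the score. Whether the downstream peak is truly stronger than the tied peaks is therefore not known.

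**Figure D2:**
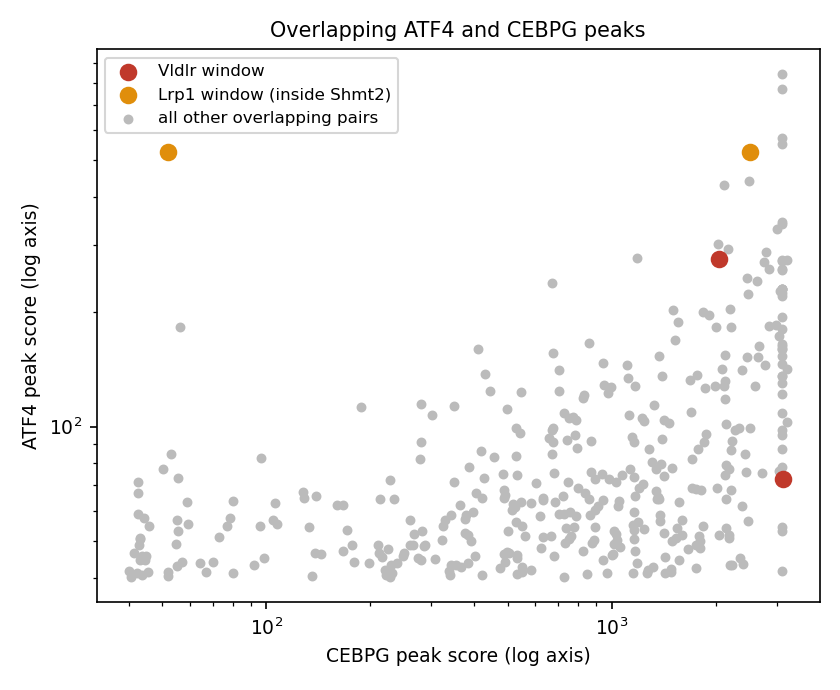
ATF4 score against CEBPG score for every overlapping pair of peaks, both on log axes, with the Vldlr pairs in red and the pairs in the Lrp1 window in orange. The downstream Vldlr pair (72.89 for ATF4, 3133.62 for CEBPG) sits low among pairs at the right edge, and the pair at the start (275.2 and 2042.82) sits near the top.

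Lrp8, which like VLDLR binds reelin, had no ATF4 peak and 2 CEBPG peaks in its window on chromosome 4. The one inside the gene scored 41.22, above only 12.1% of the CEBPG list. The other scored 40.23 and lay 13497 bp beyond the gene, inside Czib, a zinc-binding protein gene. The promoter table has 3 starts for Lrp8, none of whose windows held a peak or a match to any motif searched. Such absence is usual. Of all 32851 promoter windows, 1.25% overlapped a CEBPG peak and 0.146% an ATF4 peak. The motif found most often, the degenerate C/EBP motif, was in 10.8% of them. The nearest CEBPG peak to any Lrp8 start was 35.7 kb away, and the nearest ATF4 peak was 549.2 kb away. At the pair of genes with the shared ligand, the peak lists thus differed in number of ATF4 peaks (2 at Vldlr, 0 at Lrp8) and in the highest CEBPG score (3133.62 at Vldlr, 41.22 at Lrp8).

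Lrp1 had the highest ATF4 score in any of the 5 windows, 526.4, but that peak lay inside another gene. It covered chr10:127521659-127522206, within Shmt2, the mitochondrial serine hydroxymethyltransferase gene, 16.0 kb beyond the Lrp1 span. Its CEBPG partner of 2510.62, and a weaker overlapping one of 51.99, also lay inside Shmt2, as did an unpaired peak of 57.52. CEBPG peaks of 396.04 and 62.26, only a few bases apart, lay inside Ndufa4l2, a gene related to a mitochondrial respiratory chain subunit. A peak of 48.98 lay inside Stat6, a cytokine-activated transcription factor gene. Lrp1 itself held a single CEBPG peak, of 45.48, and no ATF4 peak. That CEBPG peak was 27.8 kb from the start of Lrp1. The window of this start held no peak and no motif match, as is usual for promoter windows.

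At the Wnt co-receptor genes the top CEBPG scores, 59.73 at Lrp5 and 63.53 at Lrp6, were above those of 55.2% and 59.4% of genes with a CEBPG peak in their window. Lrp6, on chromosome 6, held the family's remaining ATF4 peak, with a score of 41.58, rank 2181 of 2642. It lay inside the gene and overlapped no CEBPG peak. Of the 6 CEBPG peaks in the Lrp6 window, 3 were inside the gene (52.08, 48.14 and 63.53) and 3 outside it (41.74, 43.93 and 48), beside a median of 47.24 for the whole list. The last of these was nearer to Mansc1. Lrp5 lies on the same chromosome as Vldlr, and no peak fell inside it. The 2 CEBPG peaks of its window scored 40.82 and 59.73 and lay inside the neighbouring Ppp6r3, a regulatory subunit gene of protein phosphatase 6, the lower-scoring of them 47.2 kb from Lrp5 and so just inside the 50 kb limit. Lrp5 and Lrp6 were not matched in the promoter table.

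**Figure D3:**
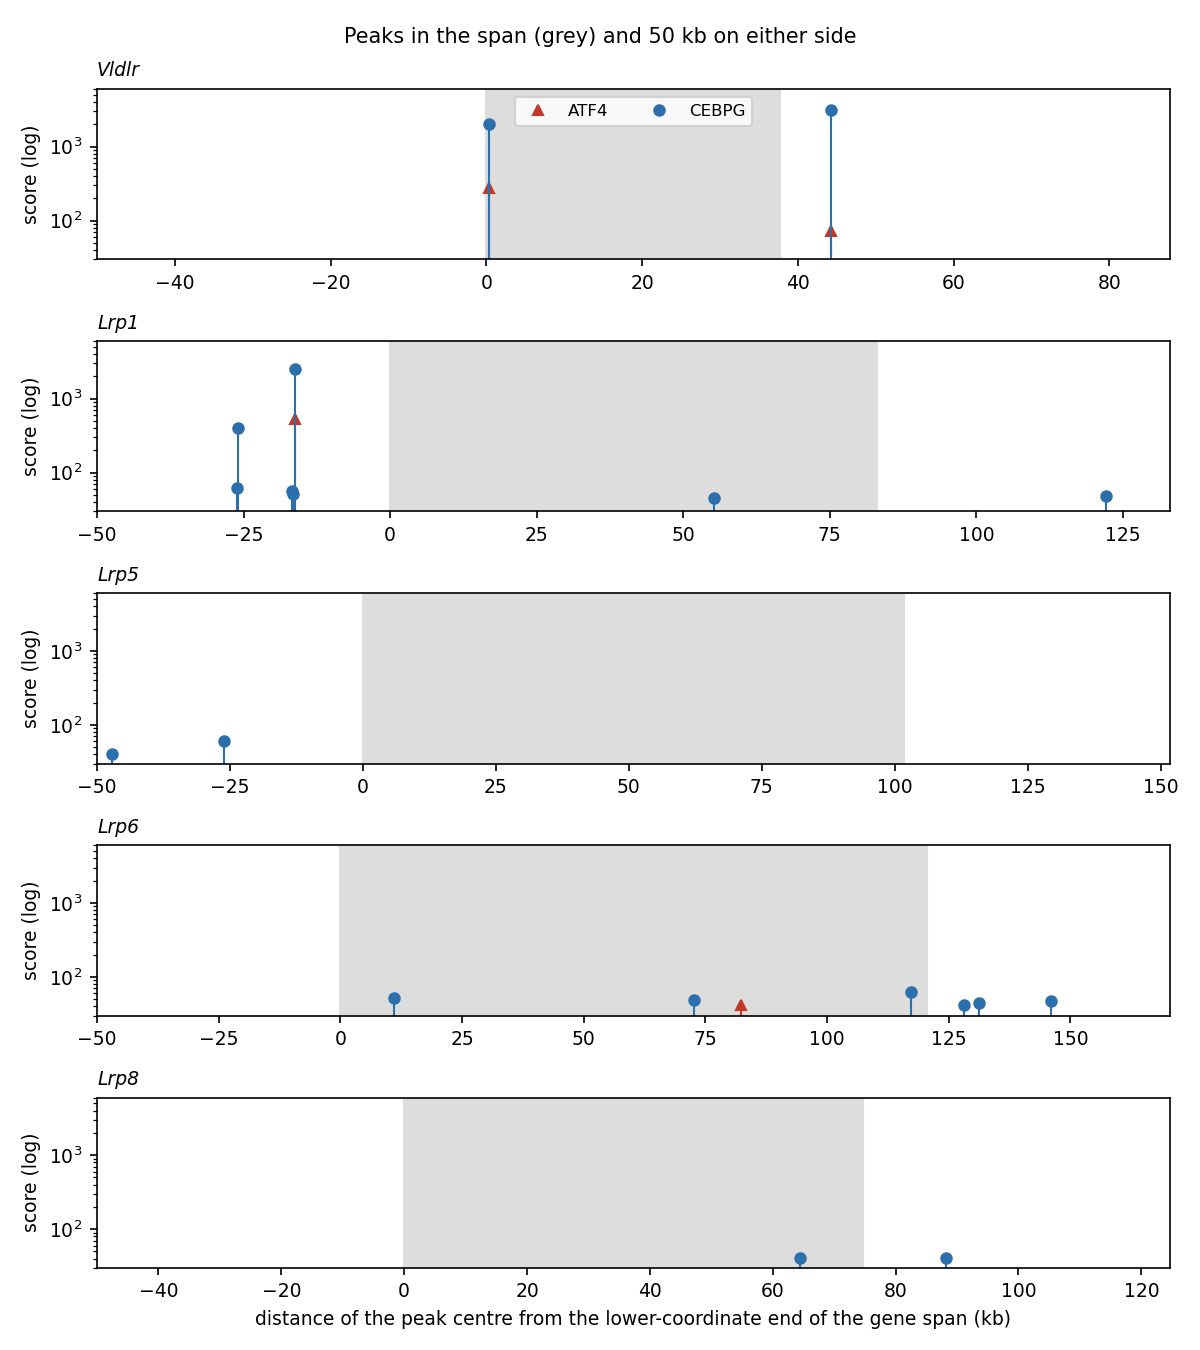
Scores (log axis) of all ATF4 (red triangles) and CEBPG (blue circles) peaks in the windows of the 5 receptor genes, against distance in kb from the lower-coordinate end of each gene span, with the span in grey. Vldlr shows 2 stacked pairs at high CEBPG score, while peaks within the spans of the other 4 stay below a score of 100, as most peaks of both lists do.

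Counted over the 4 other receptors, the windows held 2 ATF4 peaks, 1 of them shared, and 17 CEBPG peaks. Restricted to peaks whose nearest protein-coding gene was the receptor itself, they held 1 ATF4 peak (41.58), no shared ATF4 peak and 7 CEBPG peaks, with scores from 41.22 to 63.53 and a median of 45.48. At Vldlr the same restriction removed nothing. Of the 17 CEBPG peaks, 15 scored under 100, and the 2 others were those inside Shmt2 and Ndufa4l2. Scores under 100 are usual, since 63.53, the highest of the 15, was above 80.4% of the whole CEBPG list.

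These counts were set against all protein-coding genes under the same rule. An ATF4 peak was present in the windows of 3 of the 5 receptors, against 12.0% of all genes, and a CEBPG peak in all 5, against 62.5%. A shared ATF4 peak was present at Vldlr and, through Shmt2, at Lrp1, against 2.95% of genes. At least 2 shared ATF4 peaks were present at Vldlr and at 0.151% of all genes, 33 genes that carried 23 distinct sets of peaks because neighbours share windows. A shared pair with both scores at 100 or more was present at Vldlr and in the Lrp1 window, against 0.882% of genes. A CEBPG peak of 1000 or more was found in the same 2 windows, against 2.19% of genes. As the rule started from these peaks, none of these shares is a test. The Vldlr window, 137.8 kb long, was longer than the median of 117.2 kb, and the other 4 windows ran from 174.6 to 220.4 kb. Longer windows have more room for peaks.

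**Figure D4:**
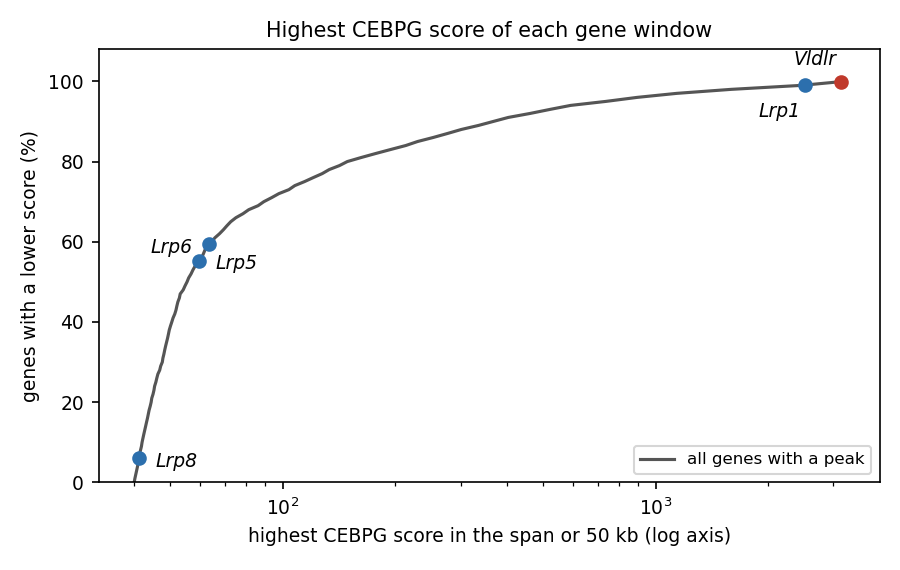
Share of genes with a lower score (percent) against the highest CEBPG score in a gene's window (log axis), for the 13685 genes with a CEBPG peak (line) and the 5 receptors (points). Vldlr (3133.62) and Lrp1 (2510.62, inside Shmt2) lie at the upper end, Lrp5 (59.73) and Lrp6 (63.53) near the median of 55.45, and Lrp8 (41.22) near the lowest scores.

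Few genes had a pair of CEBPG peaks that both scored 2000 or more, a limit just under the lower Vldlr score of 2042.82. Because Vldlr was singled out by these same scores, the share given here is no test of rarity. Such a pair was found in the windows of 4 genes (0.0183%), Vldlr (3133.62 and 2042.82), Slc7a5 (3100 for each peak), and the neighbours Nfe2l2 and Hnrnpa3, which share theirs (2781.52 and 2328.70). All of them carried 2 shared ATF4 peaks. Slc7a5 encodes a large neutral amino acid transporter, Nfe2l2 the antioxidant regulator NRF2 and Hnrnpa3 an RNA-binding protein. Slc7a5 and Nfe2l2 were named after their values were seen.

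The genes most like Vldlr were ranked by the number of shared ATF4 peaks in the window and then by the closeness of the top ATF4 score, over the 2 libraries. Hnrnpa3 came first, with ATF4 scores of 287.71 and 99.02, the higher one inside Nfe2l2. Ndrg1, a stress-responsive gene, followed with ATF4 scores of 203.29 outside the gene and 46.95 inside the neighbouring Ccn4. Atpif1, an ATP synthase inhibitor gene, was ranked through the sites of Sesn2, a leucine-sensing stress protein (164.36 and 52.08). Slit3, encoding a secreted guidance protein, held both of its shared peaks inside its own span (155.98 and 45.1). Upb1, a pyrimidine-degrading enzyme gene, had scores of 114.86 and 41.46. The 2 shared ATF4 peaks at Vldlr scored 275.2 and 72.89. Because 2 peaks rarely score the same, unequal scores are not a likeness between these genes and Vldlr.

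The choice of genes did not use the composite motif in the second Vldlr window. It did use the peaks, and the motif was frequent in windows with a shared ATF4 peak. The match is therefore not independent of the choice. The composite motif was searched as TGATGNAA on both strands, where N is any base. It occurred in 19 of the 33 promoter windows that overlap a shared ATF4 peak (57.6%). It occurred in 20 of 48 windows overlapping any ATF4 peak (41.7%), in 91 of 410 overlapping a CEBPG peak (22.2%) and in 3.97% of all 32851 windows. The degenerate C/EBP motif TTGCNNAA was in 18.2% of the windows with a shared ATF4 peak and in 10.8% of all windows. The AP-1 motif TGANTCA was in 12.1% and 7.81%. The CRE TGACGTCA, the C/EBP palindrome TTGCGCAA, which also matches the degenerate C/EBP motif, and the PAR bZIP motif TTACGTAA were in 0 of the 33 windows and in 1.79%, 0.183% and 0.119% of all windows. Windows were counted as listed, so starts close together share bases. A match is a description of the letters and does not locate the bound base.

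**Figure D5:**
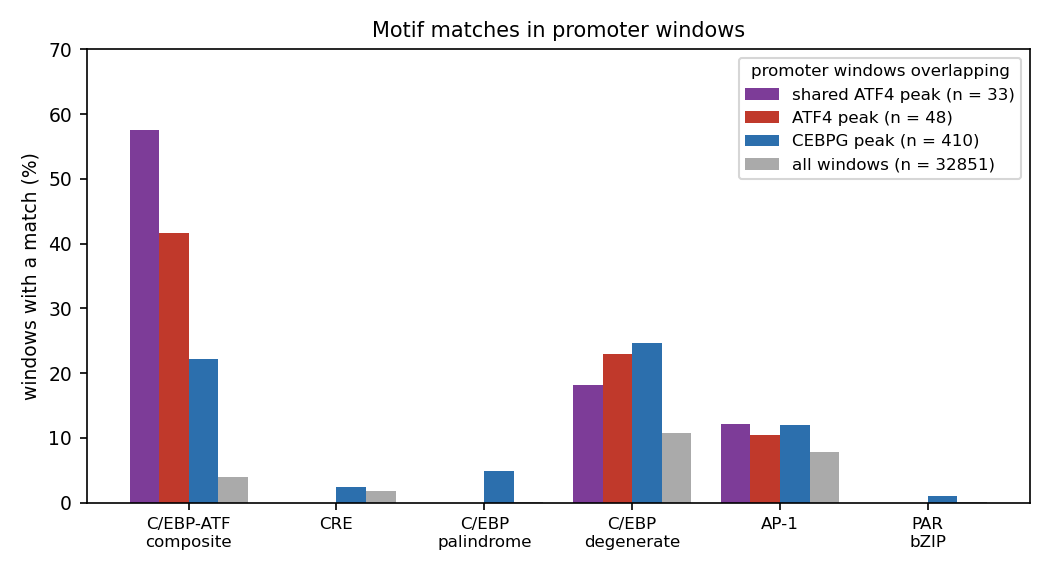
Percentage of promoter windows holding each motif, for windows overlapping a shared ATF4 peak, any ATF4 peak or a CEBPG peak, and for all windows; the first 3 sets overlap each other. The composite motif stands at 57.6% of windows with a shared ATF4 peak against 3.97% of all windows.

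To show the Vldlr element beside others of its kind, composite matches inside 5 other ATF4 peaks are printed with it. These are the highest-scoring ATF4 peaks that overlap a CEBPG peak and a promoter window and also hold such a match. Peaks without a match were left out before ranking, so the line-up does not show how often strong peaks carry the motif. Each match is given in the direction of the motif with 10 flanking bases on either side and the motif in capitals, from GRCm38.p6. The regions are chr19:27216810-27216837 (reverse strand) for Vldlr, chr2:119351039-119351066 (reverse) for Chac1, chr14:55540153-55540180 (reverse) for Pck2, chr6:7693215-7693242 (reverse) for Asns, chr3:50443643-50443670 (forward) for Slc7a11 and chr2:69405891-69405918 (forward) for Gm36393.
Vldlr: ctaggagcgcTGATGCAActattgctgc
Chac1: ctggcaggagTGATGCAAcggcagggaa
Pck2: tgtaagatacTGATGTAActttgaaggc
Asns: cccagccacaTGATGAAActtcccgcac
Slc7a11: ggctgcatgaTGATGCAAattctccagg
Gm36393: gtcaacagagTGATGTAActgtggtgta

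The Vldlr element read TGATGCAA, as did those of Chac1, a glutathione-degrading enzyme gene, and Slc7a11, the cystine transporter gene. It read TGATGTAA at Pck2, encoding mitochondrial phosphoenolpyruvate carboxykinase, and at Gm36393, and TGATGAAA at Asns, the asparagine synthetase gene. Of the 19 composite elements in windows with a shared ATF4 peak, 13 read TGATGCAA (68.4%), against 268 of 1174 over all windows (22.8%), counting elements with 10 bases on either side. Among the same 19, 17 lay inside the ATF4 peak, a median of 22.5 bp from its centre and at most 108.5 bp. The Vldlr element, at 56.5 bp, was farther from the centre than that median. The ATF4 scores over the promoters in the line-up were 275.2 at Vldlr, 841.75 at Chac1, 259.71 at Pck2, 188.31 at Asns, 153.06 at Slc7a11 and 137.08 at Gm36393. Among these promoters, picked for holding a match, Vldlr stood next after Chac1.

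Other genes of the LDL receptor family, 9 in a list of relatives, had an ATF4 peak in 4 windows and a CEBPG peak in 7, where 12.0% and 62.5% of all genes had one. The same shares of all genes apply to the lists that follow. Of the 9, 2 had a shared ATF4 peak, beside 2.95% of all genes, and 0 had as many as Vldlr, beside 0.151%. The highest CEBPG score among them was 1288.89, 13770 bp from Sorl1, a sorting receptor gene, with no ATF4 peak in the window. Ldlrad3 followed with 485.02 outside the gene and an unpaired ATF4 peak of 46.64 inside it. Lrp2, the megalin gene, had a shared pair of 137.08 for ATF4 and 429.03 for CEBPG that lay nearer to Dhrs9. Lrp1b, the other relative with a shared pair, held it inside its own span of 2058.3 kb, at scores of 40.27 for ATF4 and 40.5 for CEBPG, near the lowest of each list; it was named after its values were seen. Lrp10 had a CEBPG peak of 185.48 inside Slc7a7. The median of the top CEBPG scores of those with a peak was 185.48, beside 55.45 over all genes with a peak. That median is the Lrp10 value, from the peak inside Slc7a7. Window lengths were not matched in these comparisons. The 9 windows held a median of 2 CEBPG peaks, with 24 at Lrp1b, against a median of 1 over all genes.

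Ligands, adaptors and downstream proteins of the reelin and lipoprotein receptors, 15 genes, had an ATF4 peak in 3 windows and a CEBPG peak in 10. The median top CEBPG score of the 10 with a peak was 61.4. The exception was Fyn, the kinase that phosphorylates DAB1 after reelin binding, with a shared pair of 146 for ATF4 and 3100 for CEBPG about 45 kb outside the gene, at 45008 bp for ATF4. Thbs1, a secreted ligand gene, had a CEBPG peak of 115.13 inside Fsip1. Pafah1b1, a gene needed for neuronal migration, had one of 78.77, nearer to another gene. Reln, the reelin gene, had a top CEBPG score of 50.75 and no ATF4 peak, and Dab1, its adaptor, had 60.4 and an unpaired ATF4 peak of 59.8 inside the gene.

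Genes that work with LRP5 and LRP6 in Wnt signalling, 19 in all, had an ATF4 peak in 2 windows, a CEBPG peak in 15 and a shared pair in 0, where 2.95% of all genes had a shared pair. Fzd4, a Frizzled receptor gene, led with a CEBPG score of 1427.6, 5797 bp from the gene, and an ATF4 peak of 51.38 inside the gene that did not overlap it. Gsk3b, encoding a kinase of the destruction complex, and Dkk2, an inhibitor that binds LRP6, had CEBPG peaks of 286.93 and 283.91 inside the gene. Mesd, a chaperone gene for LRP5 and LRP6, had one of 108.18 nearer to Cfap161. The median top CEBPG score of those with a peak was 66.99.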

How the data were processed

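Peaks of 1 ATF4 and 1 CEBPG library came from the authors' BED files. Per the submitters' processing notes, the build was mm10 and the tools were BWA, Trimmomatic, HOMER and MACS 1.4.2; settings, and whether the GFP library served as background, are not given in the sources used here. Reads were single-end, 36 bp. The deposited score was read from the end of each peak name; no header states its scale, and it is used only within a list. Depth is unknown, so no interval was computed.

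BED positions were converted to 1-based. Gene spans, 21883 protein-coding genes, and 32851 promoter windows of 300 bp came from RefSeq GRCm38.p6; 3 of the 5 receptors, with 6 windows, matched the promoter table. A peak belonged to a gene when it overlapped the span or 50 kb on either side, and was shared when at least 1 bp of it lay on a peak of the other antibody. Distances are from peak edges unless a centre is named. Lists took up to 4 genes by top CEBPG score, with Reln and Dab1 named beside them after their values were seen; 1 value this rule would name is not reported here. The motif line-up was chosen after the peaks were seen. The receptors and lists were chosen with earlier results of these data known. No test was run, since each antibody had 1 library. Counting was tested on simulated data. Scripts used Python 3.11.15 and pandas 2.3.3.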

Additional observations from a re-analysis of the deposited data

How the results depend on the processing

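Of 40 alternatives to the 6 counts of peaks, 23 stayed within 1.5 times the reported count and 17 did not. With scores of at least 100, Vldlr had 1 ATF4 peak and 1 shared ATF4 peak, and the other 4 receptors had 1 ATF4 and 2 CEBPG peaks. With scores of at least 50 the other receptors had 1 ATF4 and 8 CEBPG peaks. Within gene spans alone, Vldlr had 1 ATF4 peak, 1 CEBPG peak and 1 shared ATF4 peak, and the other receptors had 1, 5 and 0. Within 20 kb the other receptors had 11 CEBPG peaks. Where 50% of both peaks had to overlap, Vldlr had 0 shared ATF4 peaks, because its CEBPG peaks are over 2 times as wide. Counting only peaks nearest to the receptor itself, an alternative chosen after seeing the data, left the other receptors 1 ATF4 peak, 7 CEBPG peaks and 0 shared ATF4 peaks. Each smaller count follows from the stricter rule. The remaining alternatives, with 100 kb and with centres within 250 bp among them, moved no count past that limit. No paired analysis was possible because each antibody had 1 library. Depth limits these lists in an unknown way: a gene without a peak may have binding below the authors' threshold.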

Other observations

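The shared pair in the Lrp2 window (ATF4 score 137.08) is also the pair over the promoter of Gm36393 shown in the line-up of composite elements, and it lay 18284 bp from Lrp2 by its ATF4 peak. At Lrp1 and Lrp2 the shared pair thus lay in or nearer to another gene, while the shared pairs of Vldlr and of Lrp1b (ATF4 score 40.27) had the receptor itself as nearest protein-coding gene.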
